A study of Mus musculus with 4 samples.

Results

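The genes described here are 6 markers of the junctional zone and the infundibulum, the parts of the upper hair follicle (HF) between the sebaceous gland and the skin surface: *Lrig1*, *Lgr6*, *Plet1*, *Gata6*, *Ly6a* and *Krt79*. They were picked by gene symbol out of 32286 measured features, and each symbol had 1 row. The data were 4 Visium slices of dorsal skin collected at postnatal day 38 (P38) from *Krox20*-CreERT; *R26*-tdTomato mice in which 4-hydroxytamoxifen had been given at P2 to mark cells of the *Krox20* lineage. CreERT was knocked in at the endogenous *Krox20* gene. Every animal carried the driver, the reporter and the induction, and there was no group without them. Each slice held a section of each of 3 mice, so that the 4 slices are repeat samplings of the same animals and the errors and p-values given here measure the spread between slices, not between mice. Visium counts unique transcript molecules (UMIs) in spots on a hexagonal grid, and a spot is a small region that can hold several cells of different types.

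After removal of 9 spots with fewer than 250 genes, 6411 of 6420 spots remained, between 1456 and 1751 per slice, with 19391734 to 26910311 UMIs per slice and a median of 11662 to 14627 UMIs per spot (replicate 1 was the deepest). The capture grid is the same on every slice, so 962 to 1402 spot barcodes recurred between any pair of slices without being the same tissue. Of all UMIs, 5205 were *Lrig1*, 615 *Lgr6*, 15362 *Plet1*, 266 *Gata6*, 12299 *Ly6a* and 25351 *Krt79*. *Gata6* was found in 3.76% of spots and *Lgr6* in 8.25%, against 47.4% for *Lrig1*, 54.5% for *Plet1*, 63.3% for *Krt79* and 68.8% for *Ly6a*, and values for *Gata6* and *Lgr6* are correspondingly less precise. All 6 passed the filter on low counts.

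The pilosebaceous unit opens to the surface through the infundibulum. Below it, the junctional zone joins the infundibulum to the sebaceous duct and to the isthmus above the bulge, and it holds stem cells that supply the infundibulum and the gland during homeostasis. *Lrig1* encodes a transmembrane protein that restrains ERBB receptor signalling and is the best known marker of junctional zone stem cells. *Lgr6* encodes a receptor for R-spondins, the secreted enhancers of Wnt signalling, and marks cells of the isthmus and the interfollicular epidermis (IFE). *Plet1* encodes a glycosylphosphatidylinositol-anchored surface protein of the same region. *Gata6* encodes a zinc finger transcription factor of the junctional zone and sebaceous duct lineage, and *Krt79* a type II keratin of the differentiating cells that line the infundibulum. *Ly6a* encodes the surface antigen Sca-1, which basal cells of the infundibulum and IFE share with fibroblasts and endothelial cells.

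In the GRCm38 build, which the submitters' processing notes name as mm10, *Lrig1* spans chr6:94604529-94700158, *Lgr6* chr1:134983301-135105276, *Krt79* chr15:101929332-101940324 and *Ly6a* chr15:74994877-74998031, all on the minus strand, and *Plet1* spans chr9:50494525-50505482 on the plus strand. All 5 are protein-coding genes in the annotation. RefSeq promoter windows (GRCm38.p6), from 250 bases before to 50 after the start, were on hand for *Lrig1*, *Lgr6*, *Plet1* and *Krt79*. They are shown for *Krt79* and *Plet1*, whose levels followed depth most alike among these 4 genes, and for *Lgr6*, whose levels did not follow them. The windows are chr15:101940275-101940574 on the minus strand for *Krt79*, chr9:50494275-50494574 on the plus strand for *Plet1* and chr1:135105227-135105526 on the minus strand for *Lgr6*. Capitals mark a match on either strand to AGATAA, a motif of GATA factors found in 11.2% of the 32851 windows in the table. They also mark the core promoter motif TATAAA, found in 13.6% of windows. The last motif was GCGGGGGCG or GCGTGGGCG, to which factors of the EGR family such as Krox20 bind, found in 3.47%.
Krt79: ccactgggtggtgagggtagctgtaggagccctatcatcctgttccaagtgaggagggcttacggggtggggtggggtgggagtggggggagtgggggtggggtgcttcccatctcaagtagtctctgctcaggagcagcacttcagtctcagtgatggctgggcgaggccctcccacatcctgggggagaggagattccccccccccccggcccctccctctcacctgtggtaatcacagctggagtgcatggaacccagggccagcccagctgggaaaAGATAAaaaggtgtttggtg
Plet1: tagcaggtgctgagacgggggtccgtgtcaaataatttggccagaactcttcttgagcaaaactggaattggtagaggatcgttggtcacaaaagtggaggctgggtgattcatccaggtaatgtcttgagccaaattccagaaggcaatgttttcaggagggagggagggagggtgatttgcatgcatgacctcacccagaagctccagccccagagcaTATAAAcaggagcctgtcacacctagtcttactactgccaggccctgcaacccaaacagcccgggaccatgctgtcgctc
Lgr6: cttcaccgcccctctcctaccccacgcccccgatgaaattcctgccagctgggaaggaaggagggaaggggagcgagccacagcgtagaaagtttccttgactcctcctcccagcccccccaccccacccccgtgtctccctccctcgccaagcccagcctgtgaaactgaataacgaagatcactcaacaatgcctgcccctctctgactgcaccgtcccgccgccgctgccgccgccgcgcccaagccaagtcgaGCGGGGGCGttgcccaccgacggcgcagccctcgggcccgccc

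The *Krt79* window held the GATA motif 30 bases after the start, the *Plet1* window the core promoter motif 30 bases before it, and the *Lgr6* window the EGR motif 7 bases after it, each in 1 copy. The *Lrig1* window, 73% G and C against a median of 52.7% over all windows, held none of these motifs. The matches describe letters, and binding was not measured.

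To place the genes in the skin, spots were scored with lists of marker genes that contain none of the 6. A spot took the name of its best list if its standardised score was at least 1. This gave 539 IFE spots (*Krt10*, *Lor* and other differentiation genes), 462 upper HF spots (a list that includes *Defb6*, *Cst6*, *Krt17* and *Egr2*, the gene of Krox20), 345 sebaceous gland spots, 855 outer root sheath spots, 1022 inner root sheath and matrix spots, 334 dermal fibroblast spots, 595 adipose spots, 927 muscle spots and 1332 spots without a name. The names stand for the leading genes and not for pure tissue: the 8 dermal fibroblast genes summed to 29680 counts per 1000000 UMIs (CPM) in IFE spots and 18269.7 CPM in upper HF spots, against 53536.5 CPM in the dermal fibroblast spots. Depth was the number of grid steps to the nearest IFE spot, which is step 0, with 100 µm between neighbouring spot centres. Upper HF spots made up 35.2% of step 1 and 20% of step 2, sebaceous gland spots 32.6% and 8.83%, and outer root sheath spots 27.9% of step 2 and 34% of steps 3 to 4. In CPM, fewer cells of a type and less RNA per cell cannot be told apart.

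*Lrig1* was the marker with the deepest peak. Its level per slice was 53.3, 48.0, 54.3 and 70.8 CPM at step 0 in replicates 1 to 4, 102.3, 103.7, 102.0 and 122.5 CPM at step 1, and 125.4, 146.5, 118.5 and 144.8 CPM at step 2. It was thus lowest of these at the IFE and highest at step 2 in 4 of 4 slices, and the slices of step 0 did not overlap those of step 1. From 133.8 ± 14.0 CPM at step 2 (SD, n = 4) it fell slowly, to 90.9 ± 11.6 CPM at step 3, 66.7 ± 11.02 CPM at step 4 and 19.0 ± 2.84 CPM at step 8. In edgeR's quasi-likelihood test on UMI sums per slice and depth band, *Lrig1* rose from step 0 to step 1 (log2 fold change 0.89 ± 0.13 SE, adjusted p = 5.25e-06) and fell from step 2 to steps 3 to 4 (-0.68 ± 0.10, adjusted p = 9.41e-06). The further rise from step 1 to step 2 was small (0.33 ± 0.11, edgeR adjusted p = 0.0463) and lost its call without any 1 of the 4 slices, with adjusted p between 0.0551 and 0.276, and in DESeq2 (adjusted p = 0.0876). No label names the sections, so each slice was cut into 3 at the positions where its muscle and IFE spots were densest. Of the 12 sections inferred in this way, *Lrig1* peaked at step 2 in 9 and at step 1 in 3.

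*Plet1* rose more steeply over the same steps. Its CPM was 248.7, 266.5, 285.4 and 254.2 at step 0 in replicates 1 to 4, 654.7, 785.4, 767.1 and 650.8 at step 1, and 580.2, 750.9, 550.9 and 608.8 at step 2. Step 1 was the highest in every slice, but its values overlapped with those of step 2, and the fitted difference between them was -0.19 ± 0.15 on the log2 scale (edgeR adjusted p = 0.498). The rise from step 0 to step 1 was 1.398 ± 0.155 (edgeR adjusted p = 5.65e-08). Below step 2 *Plet1* fell to 159.2 ± 42.7 CPM at step 3 and 38.7 ± 11.1 CPM at step 4, and the fall from step 2 to steps 3 to 4 was -2.59 ± 0.16 (edgeR adjusted p = 7.06e-13).

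*Krt79* and *Gata6* lay nearest to the surface. *Krt79* was at 1034.7, 1237.6, 1244.4 and 1045.0 CPM at step 0, 1389.3, 1861.9, 1657.0 and 1436.2 CPM at step 1, and 399.8, 512.7, 492.1 and 556.2 CPM at step 2. It was highest at step 1 in 4 of 4 slices and in 11 of 12 inferred sections, and every slice was higher at step 1 than any slice at step 0. The rise to step 1 was 0.43 ± 0.14 on the log2 scale (edgeR adjusted p = 0.0298) and did not pass without replicate 2, 3 or 4 (adjusted p = 0.072, 0.109 and 0.0887). The fall from step 1 to step 2 was -1.69 ± 0.14 (edgeR adjusted p = 1.18e-09).

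*Gata6* was at 9.54, 9.42, 11.9 and 11.6 CPM at step 0, 14.6, 13.1, 14.9 and 18.9 CPM at step 1, and 3.88, 3.69, 4.56 and 8.70 CPM at step 2. Steps 0 and 1 did not overlap, yet with 51 and 114 UMIs behind them their difference of 0.52 ± 0.33 did not pass (edgeR adjusted p = 0.35). Step 2 lay below step 1 in every slice (-1.56 ± 0.32, edgeR adjusted p = 0.001), and from step 4 on the mean level was at most 1.03 CPM. The gene was at 0 UMIs in replicate 1 at step 3, in replicate 3 at step 6, in replicates 2 and 4 at step 7 and in replicate 2 at step 8.

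*Ly6a* was spread more evenly over the surface and came back at depth. Its CPM was 246.5, 270.3, 262.7 and 207.6 at step 0, 256.5, 322.9, 268.9 and 262.9 at step 1, and 234.6, 269.5, 236.0 and 204.4 at step 2. These ranges overlapped, and neither neighbouring difference passed (0.12 ± 0.11, edgeR adjusted p = 0.521, and -0.22 ± 0.10, edgeR adjusted p = 0.189). From step 2 to steps 3 to 4 it fell (-0.97 ± 0.10, edgeR adjusted p = 3e-08), reached its lowest mean of 63.2 ± 4.66 CPM at step 5, and stood at 126.6, 105.7, 164.4 and 148.7 CPM at step 8, above every slice at step 5. The 8 dermal fibroblast genes moved in the same way, with a summed level of 20054 CPM at step 2, 2555 CPM at steps 5 to 6 and 7009 CPM from step 7 on, and so did the 5 endothelial genes *Pecam1*, *Cdh5*, *Kdr*, *Cldn5* and *Emcn*, at 129.8, 57.4 and 101.0 CPM, while the muscle list reached 15177 CPM from step 7 on. *Ly6a* itself was at 162.5 ± 12.5 CPM in muscle spots and 160.5 ± 14.2 CPM in adipose spots. The part of fibroblasts, endothelium, muscle and fat in the *Ly6a* profile was not tested.

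*Lgr6* had high levels at both ends of the depth range. It was at 14.0, 11.3, 10.9 and 11.6 CPM at step 0 and 10.6, 15.2, 5.85 and 16.8 CPM at step 1, so that its highest step was step 0 in replicates 1 and 3 and step 1 in replicates 2 and 4. At step 2 it was at 2.82, 5.07, 7.29 and 5.65 CPM, and the difference from step 1 was -1.23 ± 0.29 (edgeR adjusted p = 0.00374). That call was lost without replicate 2 (adjusted p = 0.0503) or 4 (0.0605) and after every spot had been thinned to 5500 UMIs (adjusted p = 0.0562). *Lgr6* was lowest at step 4, at 3.04 ± 1.33 CPM, and stood at 8.50, 11.5, 7.44 and 10.3 CPM at step 8, where every slice was above every slice of step 4. A spot with the gene rarely held more than 1 UMI, as 529 spots shared its 615 UMIs.

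**Figure D1:**
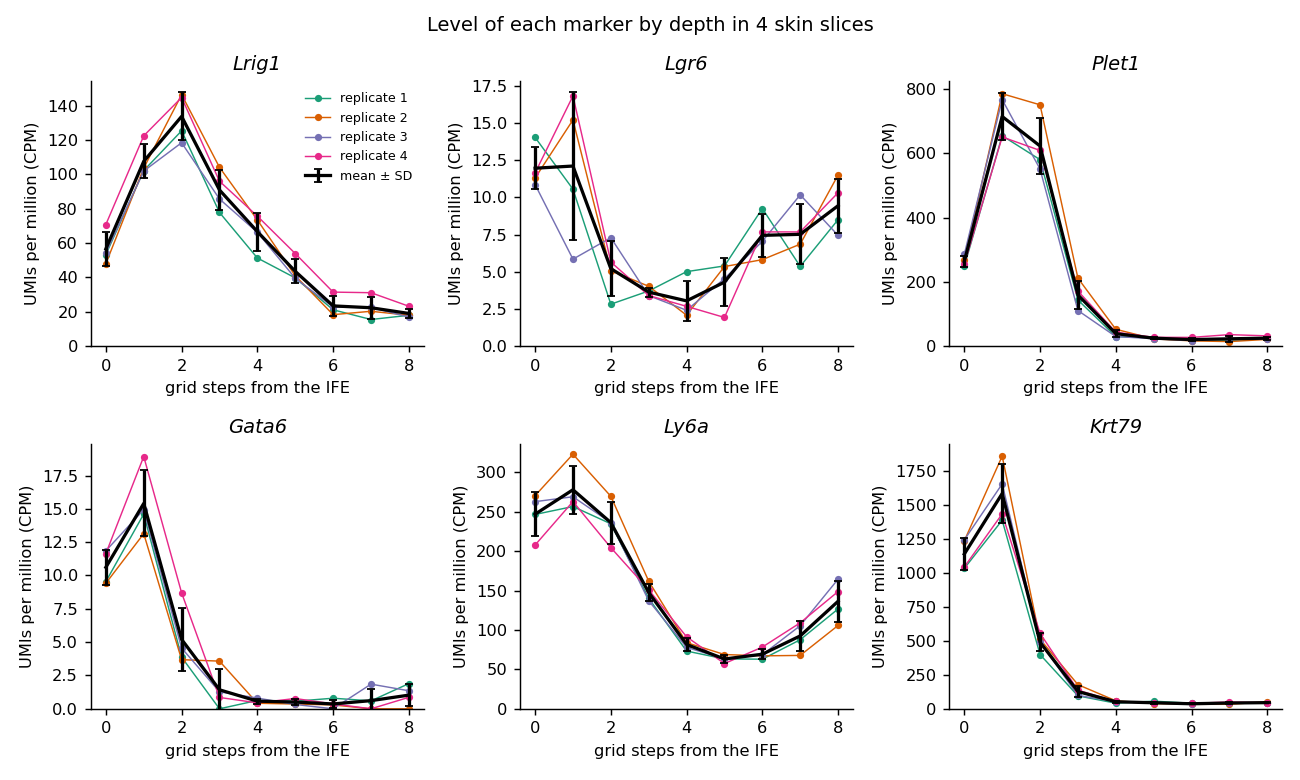
Counts per 1000000 UMIs of each marker (CPM, vertical axis, own scale per panel) against grid steps from the IFE (horizontal axis, step 0 is the IFE) in the 4 slices (coloured lines), with the mean and SD over slices in black. *Lrig1* peaks at step 2, *Plet1*, *Gata6*, *Ly6a* and *Krt79* at step 1, and *Lgr6* and *Ly6a* rise again toward step 8.

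Set against all genes, 3 of the 6 markers rose from step 0 to step 1 (*Lrig1*, *Plet1* and *Krt79*) and none fell, where 14.6% of 12932 tested genes were called, 6.5% higher and 8.06% lower. From step 1 to step 2, *Lgr6*, *Gata6* and *Krt79* fell and *Lrig1* rose, where 12.4% of genes were called, 5.78% higher and 6.65% lower. From step 2 to steps 3 to 4, 5 of 6 fell, all but *Lgr6* (-0.48 ± 0.31, edgeR adjusted p = 0.286, and -0.92 with adjusted p = 0.0495 without replicate 1, against -0.19 without replicate 3), where 25.3% were called and 14.1% were lower. Between step 1 and steps 3 to 4 all 6 were lower, where 39% were called and 20% were lower. In that last comparison the log2 fold change was -0.35 ± 0.11 for *Lrig1* (edgeR adjusted p = 0.00965, and 0.0529 without replicate 1), -1.18 ± 0.10 for *Ly6a*, -1.71 ± 0.27 for *Lgr6*, -2.77 ± 0.16 for *Plet1*, -3.86 ± 0.38 for *Gata6* and -4.06 ± 0.16 for *Krt79*. The median over the 6 was -2.24, against 0.04 over all tested genes.

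The mean depth, in which each of steps 0 to 8 is weighted by the gene's CPM there, summarises these profiles in 1 number per slice. A gene with the same CPM at every step has a mean depth of 4. *Krt79* was the shallowest at 1.20 ± 0.06 steps (SD, n = 4), with 1.21, 1.17, 1.13 and 1.27 in replicates 1 to 4. *Gata6* followed at 1.39 ± 0.20 (1.59, 1.18, 1.53 and 1.26), whose slices overlapped with those of *Krt79*, and *Plet1* at 1.69 ± 0.10 (1.68, 1.68, 1.57 and 1.82). *Lrig1* lay at 2.80 ± 0.06 (2.71, 2.80, 2.82 and 2.87), *Ly6a* at 2.96 ± 0.24 (2.91, 2.64, 3.07 and 3.20) and *Lgr6* at 3.72 ± 0.19 (3.64, 3.68, 4.00 and 3.55).

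Of the 15 pairs of markers, 13 were ordered the same way in 4 of 4 slices. The exceptions were *Gata6* with *Krt79* (difference 0.19 ± 0.22 steps, deeper *Gata6* in 3 of 4 slices) and *Lrig1* with *Ly6a* (-0.16 ± 0.21, deeper *Ly6a* in 3 of 4). An exact two-sided sign-flip test over 4 slices cannot give a p below 1 in 8, so none of these orders can pass a threshold of 0.05. *Lrig1* was deeper than *Plet1* by 1.11 ± 0.09 steps and deeper than *Krt79* by 1.60 ± 0.08, and *Plet1* was deeper than *Krt79* by 0.49 ± 0.05, each in 4 of 4 slices. Slices pool 3 inferred sections, and the place of *Lgr6* differed between these. As means over slices, *Lgr6* lay at 4.14 ± 0.58 and 3.71 ± 0.37 steps in sections 1 and 2, deeper than *Lrig1* and *Ly6a*. In section 3 it lay at 2.90 ± 0.59, shallower than *Lrig1* (3.07 ± 0.29) and *Ly6a* (3.19 ± 0.12).

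The place of *Lgr6* and *Ly6a* in this order came from the deep steps. Over steps 0 to 5 alone, a range chosen after the deep rise had been seen, *Lrig1* was the deepest at 2.27 ± 0.06 (an even profile gives 2.5), followed by *Ly6a* at 1.74 ± 0.05, *Lgr6* at 1.67 ± 0.20, *Plet1* at 1.49 ± 0.08, *Gata6* at 1.03 ± 0.09 and *Krt79* at 0.98 ± 0.04. *Lrig1* was then deeper than *Lgr6* by 0.59 ± 0.21 steps in 4 of 4 slices, where over steps 0 to 8 it had been shallower by 0.92 ± 0.21 in 4 of 4. *Plet1* was deeper than *Gata6* and *Krt79* in 4 of 4 slices under both ranges. *Gata6* and *Krt79* were not ordered alike in every slice under either, with a difference of 0.05 ± 0.07 steps over steps 0 to 5.

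**Figure D2:**
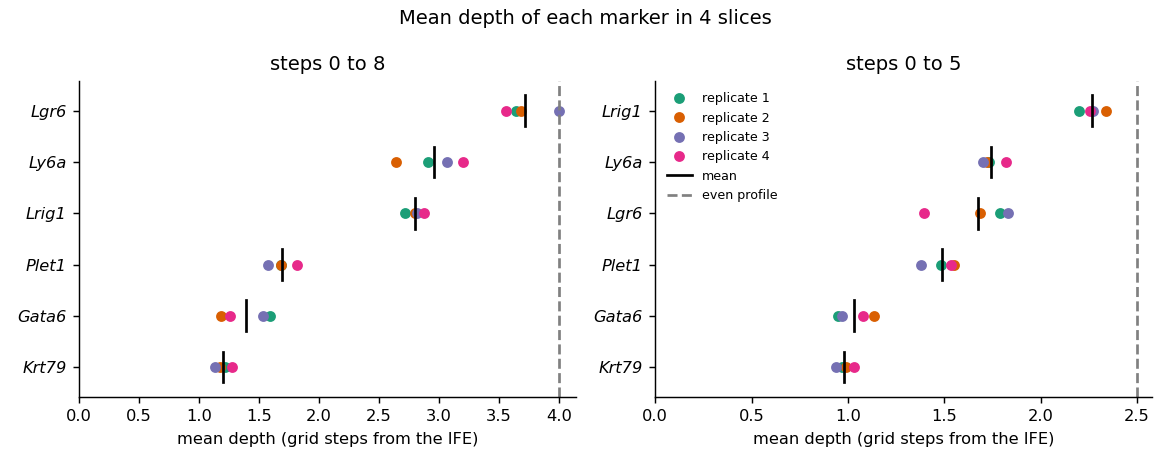
Mean depth of each marker in grid steps from the IFE (horizontal axis) over steps 0 to 8 (left) and 0 to 5 (right), 1 point per slice, with the mean as a black bar and the value of an even profile as a dashed line. *Krt79* and *Gata6* overlap at the shallow end of both panels, and *Lgr6* moves from the deepest place on the left to between *Plet1* and *Ly6a* on the right.

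The scale also bears on the deep part. Per 1000 UMIs of *Krt5* and *Krt14*, the keratins of basal and outer root sheath cells, *Plet1*, *Gata6* and *Krt79* still peaked at step 1 in 4 of 4 slices, at 134.7 ± 18.9, 2.89 ± 0.40 and 299.4 ± 55.8. *Lrig1* then peaked at step 5 in 3 slices and step 7 in the other, with 27.6 ± 5.88 per 1000 at step 5 against 20.3 ± 2.31 at step 1 and 13.5 ± 1.71 at step 2. *Ly6a* peaked at step 8 in 4 of 4 slices (134.8 ± 18.7 per 1000) and *Lgr6* at steps 6 to 8. The step 2 peak of *Lrig1* is thus a statement about its share of all RNA in a spot and does not hold for its ratio to these keratins. With step 0 set instead by the Seurat cluster richest in IFE genes, which took in 845 spots in place of 539, *Krt79* and *Ly6a* peaked at step 0 and *Lrig1* and *Plet1* at step 1 in 4 of 4 slices, and *Gata6* at step 0 in 3 of 4. Of the 12 inferred sections, *Plet1* peaked at step 1 in 8 and step 2 in 4, and *Gata6* at step 1 in 9 and step 0 in 3. *Ly6a* peaked at step 1 in 7, step 0 in 4 and step 2 in 1. *Lgr6* peaked at step 0 in 5, step 1 in 3, and steps 2, 6, 7 and 8 in 1 each. In thinned spots of replicate 2, *Plet1* peaked at step 2 and *Gata6* at step 0. With a score threshold of 0.75 or 1.5, *Ly6a* peaked at step 0 in replicate 3.

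By compartment, *Lrig1*, *Plet1* and *Gata6* were higher in every slice of the upper HF spots than in any slice of another compartment. *Lrig1* was at 160.9, 155.3, 161.7 and 203.4 CPM there in replicates 1 to 4, against 53.3, 48.0, 54.3 and 70.8 CPM in IFE spots and 97.8, 104.6, 100.1 and 110.7 CPM in outer root sheath spots. *Plet1* was at 1164.7, 1108.7, 1061.9 and 1169.8 CPM in upper HF spots, against 248.7, 266.5, 285.4 and 254.2 CPM in IFE spots and 263.8, 253.4, 218.6 and 242.0 CPM in outer root sheath spots. The nearest other slices were those of the sebaceous gland spots, at 121.8 CPM for *Lrig1* and 640.8 CPM for *Plet1*. *Krt79* was at 1580.2 ± 73.0 CPM in upper HF spots, 1538.4 ± 174.2 CPM in sebaceous gland spots and 1140.4 ± 116.2 CPM in IFE spots, and at 146.3 ± 9.83 CPM in outer root sheath spots.

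*Gata6* was at 17.3, 14.0, 17.0 and 26.6 CPM in upper HF spots and 11.8, 10.6, 13.7 and 10.4 CPM in sebaceous gland spots, with 1.41 ± 0.39 CPM in outer root sheath spots, so that its lowest upper HF slice lay just above its highest gland slice. *Lgr6* was highest in sebaceous gland spots (11.8, 19.9, 15.1 and 17.3 CPM), where its values overlapped with those of IFE spots (14.0, 11.3, 10.9 and 11.6 CPM), and it was at 9.11 ± 1.78 CPM in upper HF spots. *Ly6a* was highest in dermal fibroblast spots, at 337.8, 446.0, 393.7 and 333.2 CPM, above every slice of every other compartment. It did not differ beyond its spread between IFE (246.8 ± 27.9 CPM), upper HF (218.8 ± 23.2 CPM) and sebaceous gland spots (255.6 ± 22.9 CPM).

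**Figure D3:**
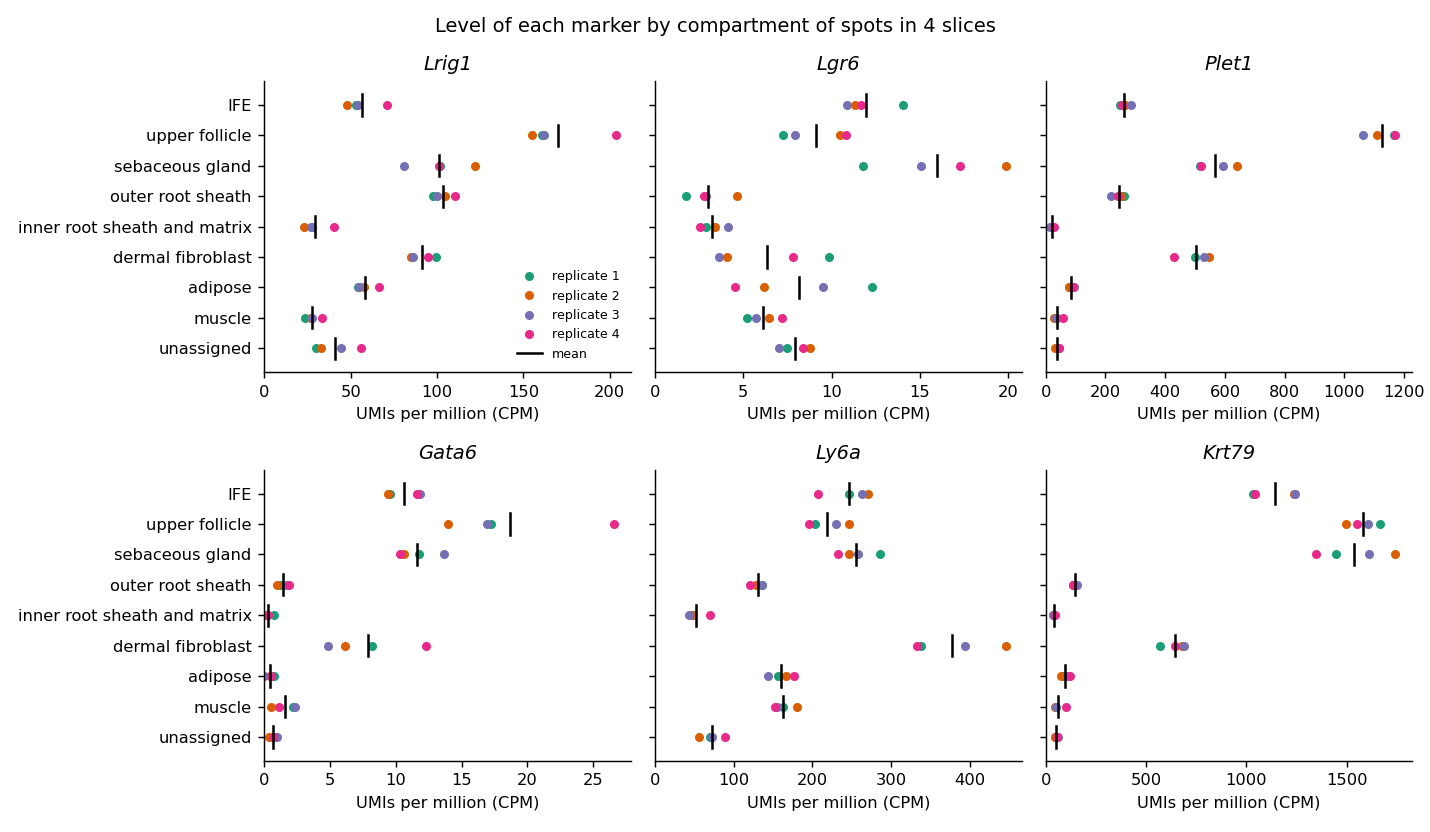
Counts per 1000000 UMIs (CPM, horizontal axis) of each marker in spots named by their best-scoring marker list (vertical axis), 1 point per slice, with the mean as a black bar. *Lrig1*, *Plet1* and *Gata6* have their highest mean in upper HF spots, *Ly6a* in dermal fibroblast spots and *Lgr6* in sebaceous gland spots.

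In the edgeR fit over compartments, 4 of 6 markers were higher in upper HF than in IFE spots, where 17.7% of 12385 tested genes were called, 8.67% of them higher. These were *Plet1* (log2 fold change 2.10 ± 0.13 SE, adjusted p = 8.51e-17), *Lrig1* (1.60 ± 0.14, adjusted p = 2.97e-12), *Gata6* (0.84 ± 0.27, adjusted p = 0.0222) and *Krt79* (0.47 ± 0.14, adjusted p = 0.0109). The *Gata6* call was lost without replicate 1 (edgeR adjusted p = 0.103) or 4 (0.246), and the *Krt79* call without replicate 1 (0.0898). *Lgr6* (-0.41 ± 0.30, edgeR adjusted p = 0.416) and *Ly6a* (-0.18 ± 0.13, edgeR adjusted p = 0.398) did not pass.

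All 6 were higher in upper HF than in outer root sheath spots, where 23.4% of genes were called and 13.1% were higher. The log2 fold changes ran from 0.71 ± 0.12 for *Lrig1* (edgeR adjusted p = 1.11e-05) and 0.73 ± 0.13 for *Ly6a*, through 1.58 ± 0.34 for *Lgr6* and 2.18 ± 0.13 for *Plet1*, to 3.41 ± 0.15 for *Krt79* and 3.72 ± 0.33 for *Gata6* (edgeR adjusted p = 4.83e-12). The *Lgr6* call did not pass in thinned spots (1.08, edgeR adjusted p = 0.0894).

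Between sebaceous gland and upper HF spots, where 8.07% of genes were called, 4.12% higher and 3.95% lower, *Lrig1* (-0.79 ± 0.14, edgeR adjusted p = 3.74e-05) and *Plet1* (-1.03 ± 0.13, edgeR adjusted p = 4.05e-08) were lower in the gland. The differences of *Gata6* (-0.75 ± 0.28, edgeR adjusted p = 0.107), *Lgr6* (0.72 ± 0.31, edgeR adjusted p = 0.172), *Ly6a* (0.18 ± 0.13, edgeR adjusted p = 0.502) and *Krt79* (-0.08 ± 0.14, edgeR adjusted p = 0.84) did not pass.

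Dermal fibroblast spots differed from IFE spots in 5 of the 6, where 18.8% of genes were called, 9.24% higher and 9.61% lower. *Ly6a* (0.58 ± 0.12, edgeR adjusted p = 0.000346), *Lrig1* (0.68 ± 0.16) and *Plet1* (0.91 ± 0.13) were higher and *Krt79* lower (-0.85 ± 0.14). *Lgr6* was also lower (-0.91 ± 0.33, edgeR adjusted p = 0.0494), but that call did not pass with any 1 slice left out (adjusted p from 0.0528 to 0.186). Of the 334 dermal fibroblast spots, 152 lay at step 1 and 139 at step 2, and the 5 upper HF genes summed to 13384 CPM in them, against 11426 CPM in IFE spots. The part of follicle RNA in the dermal values of *Lrig1* and *Plet1* was not tested.

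**Figure D4:**
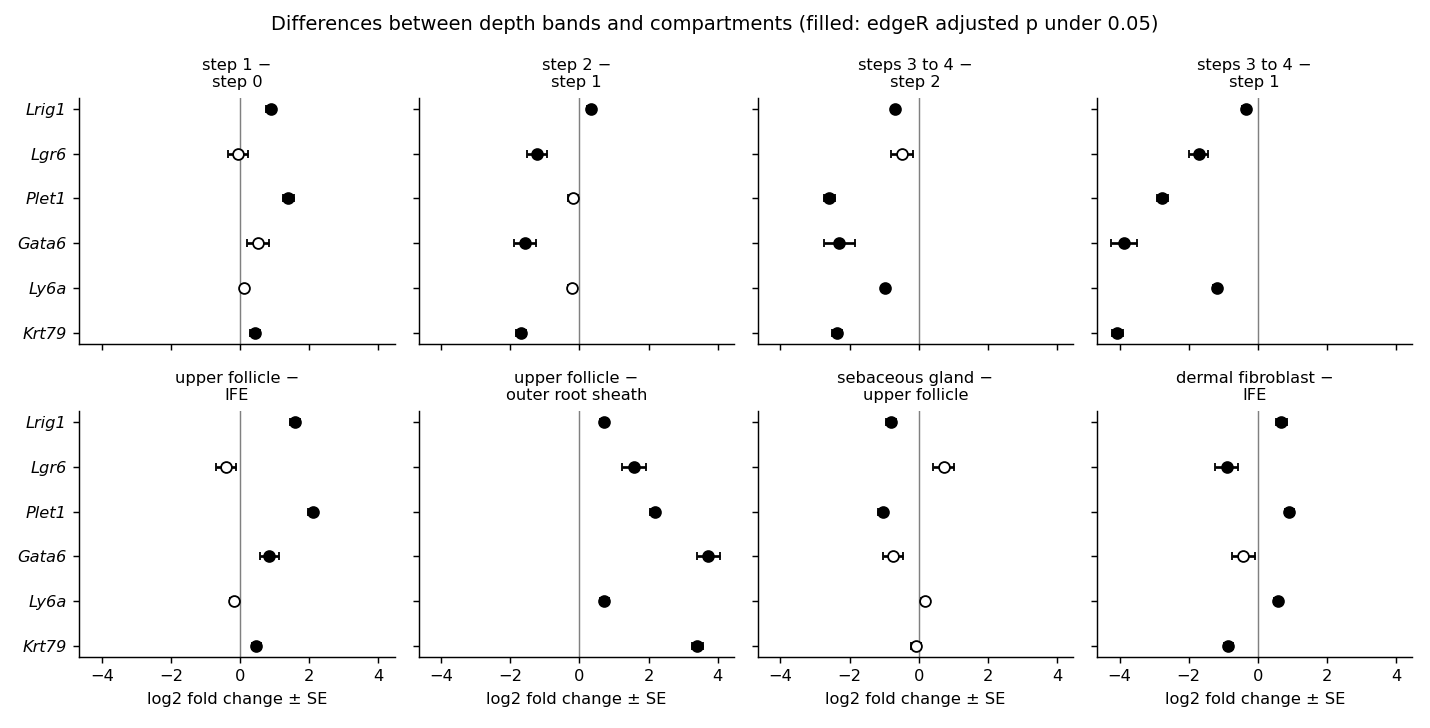
Log2 fold change (horizontal axis, ± SE from the edgeR fit over 4 slices) of each marker between depth bands (top row) and compartments (bottom row), filled where the adjusted p was under 0.05. All 6 are filled on the low side for steps 3 to 4 against step 1 and on the high side for upper HF against outer root sheath.

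Shares of spots with a UMI were compared after each spot had been thinned to 5500 UMIs, since the median depth rose from 8489 UMIs per spot at step 0 to 16654 at steps 5 to 6. Of the thinned spots at step 1, 97.2% ± 2.30 held *Krt79*, 89.6% ± 1.88 *Plet1*, 71.0% ± 4.48 *Ly6a*, 44.0% ± 2.28 *Lrig1*, 7.73% ± 2.12 *Gata6* and 6.37% ± 2.18 *Lgr6*. Muscle spots, which should lack an epithelial keratin, held *Krt79* in 25.9% after thinning (50.5% before, at a median of 14215 UMIs), *Plet1* in 17.1%, *Lrig1* in 13.5%, *Lgr6* in 3.29% and *Gata6* in 0.81%. *Ly6a* was in 53.5% of thinned muscle spots. The shares of *Krt79* and *Plet1* at steps 5 to 6, 21.4% and 11.2%, were below these muscle shares. So was the *Gata6* share of 0.414% at steps 3 to 4. *Krt79* was in 28.4% of spots at steps 3 to 4, within the spread of its muscle share (SD 5.52 over slices). Whether these shares are background was not tested. *Lrig1* was in 16.3% ± 2.25 of spots at steps 5 to 6 and in 10.7% ± 2.14 from step 7 on. *Lgr6* was in 3.06% of spots at step 2, 2.40% at steps 3 to 4 and 2.79% at steps 5 to 6, below its muscle share, and in 4.18% ± 1.04 from step 7 on. Of the spots from step 7 on 57.3% were muscle spots, so that their share cannot be set against the muscle share. *Lgr6* was at 6.14 ± 0.87 CPM in muscle spots and 7.91 ± 0.80 CPM in spots without a name, and its mean depth without muscle and adipose spots was 4.04 steps.

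Co-detection at matched depth was measured for each pair as the odds ratio of finding both genes in the same spot, within strata of grid step band and of UMI total (3 equal parts of the spots of a band) in each slice. It was above 1 in 4 of 4 slices for 8 of the 15 pairs, for 6 with the compartment added to the strata (without *Lrig1* and *Krt79*, and *Gata6* and *Krt79*) and for 5 in thinned spots (without *Lrig1* and *Krt79*, *Lgr6* and *Ly6a*, and *Ly6a* and *Krt79*). Among all 11046 genes found in 5% to 95% of spots, the share with such an odds ratio was 26.4% for *Lrig1* as partner, 21.4% for *Lgr6*, 29.9% for *Plet1*, 37.3% for *Ly6a* and 25.8% for *Krt79*, and 8.59% of 11047 genes for *Gata6*. For each of the 8 the exact two-sided sign-flip test gave the smallest p that 4 slices allow, 1 in 8.

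*Plet1* and *Krt79* had an odds ratio of 1.82, with 1.725, 1.56, 2.08 and 1.94 in replicates 1 to 4. *Plet1* and *Ly6a* had 1.75 (2.16, 1.74, 1.57 and 1.57), and *Lrig1* and *Plet1* 1.69 (1.69, 1.62, 1.84 and 1.61). These odds ratios pool all bands and not the upper HF alone. Over the 3 pairs, observed over expected shared spots ranged from 1.00 to 1.03 at steps 0, 1 and 2. *Plet1* was in 83.2% of spots at step 0, 91.9% at step 1 and 91.8% at step 2 (means over slices). Shares this high cap the ratio but do not by themselves set it at these values. The part of this cap in the ratios was not tested. In the bands from step 3 on the ratios ranged from 1.09 to 1.21. Each of these bands pools several steps, so depth was not matched within it, and 57.3% of the spots from step 7 on were muscle spots. The part of the deep bands in the odds ratios was not tested. The slices of these 3 pairs all lay above the median of 1.06 to 1.11 that *Lrig1*, *Plet1*, *Ly6a* and *Krt79* had with all genes. Those genes were not matched for how often they were found, so the median does not rank the pairs among them. *Gata6* and *Krt79* had 1.77, but with a wide spread (1.26, 1.00, 2.38 and 3.26), and 1.22 (0.495 to 2.32) with the compartment added to the strata. *Ly6a* and *Krt79* had 1.46 (1.49, 1.97, 1.35 and 1.15), *Lrig1* and *Ly6a* 1.38 (1.34, 1.44, 1.44 and 1.29), *Lgr6* and *Ly6a* 1.17 (1.04 to 1.34) and *Lrig1* and *Krt79* 1.15 (1.05 to 1.38).

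The pairs of *Lgr6* with the other epithelial markers lay on both sides of 1 over the slices. With *Lrig1* the odds ratio was 1.05, from 0.825 to 1.39 over slices, with *Plet1* 1.03 (0.745 to 1.17) and with *Krt79* 0.951 (0.813 to 1.14). With *Gata6* it was 0.959, with 1.72, 0.577, 1.68 and 0.507 in replicates 1 to 4, and 9 spots of step 2 held both against 2.75 expected, more than expected in 4 of 4 slices, against 8 and 10.5 at step 1. *Lrig1* and *Gata6* had 1.01 (0.927 to 1.12), and 0.907 (0.89 to 0.935, below 1 in 4 of 4 slices) with the compartment added to the strata. *Plet1* and *Gata6* had 2.32, but this value came from replicate 2 at 12.8, beside 1.73, 0.919 and 1.43 in the others. Without replicate 2 it was 1.31.

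In numbers of spots, 2728 held *Plet1* and *Krt79* together, 2678 *Plet1* and *Ly6a*, 1979 *Lrig1* and *Plet1*, 254 *Lrig1* and *Lgr6*, and 24 *Lgr6* and *Gata6*. At step 1, where nearly every spot held *Plet1* and *Krt79*, 716 spots held both against 705.9 expected within UMI strata, a ratio of 1.01 that detection this frequent keeps near 1. At steps 3 to 4 the count was 450 against 391.2 expected (ratio 1.15, from 1.09 to 1.28 over slices). For *Lrig1* and *Plet1* it was 491 against 441.4 (1.11, from 1.08 to 1.16). Steps 3 and 4 were pooled in these strata, so depth was not matched between them. From step 3 to step 4 the mean share of spots fell from 62.3% to 35.2% for *Plet1*. It fell from 57.2% to 44.0% for *Krt79* and from 60.8% to 52.4% for *Lrig1*. The part of this fall in the ratios was not tested.

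The counts in thinned spots were compared as well, since detection of *Plet1* and *Krt79* was frequent at step 1. At step 2 the rank correlation between *Plet1* and *Krt79* over spots was 0.38 ± 0.08 (Spearman's rho per slice, mean and SD of 4 slices of 174 to 196 spots), at step 1 0.29 ± 0.06 and at step 0 0.17 ± 0.06. For *Lrig1* and *Plet1* it was 0.22 ± 0.05 at step 1 and 0.15 ± 0.09 at step 2, and for *Lrig1* and *Krt79* 0.08 ± 0.07 and 0.07 ± 0.03. *Ly6a* had mean values from -0.09 to 0.09 with *Lrig1*, *Plet1* and *Krt79* at steps 0 to 2, such as -0.08 ± 0.09 with *Plet1* at step 1. With *Plet1* it had 0.17 ± 0.03 at steps 3 to 4, which were pooled, so that depth was not matched between them. These are descriptions over neighbouring spots of the same sections.

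**Figure D5:**
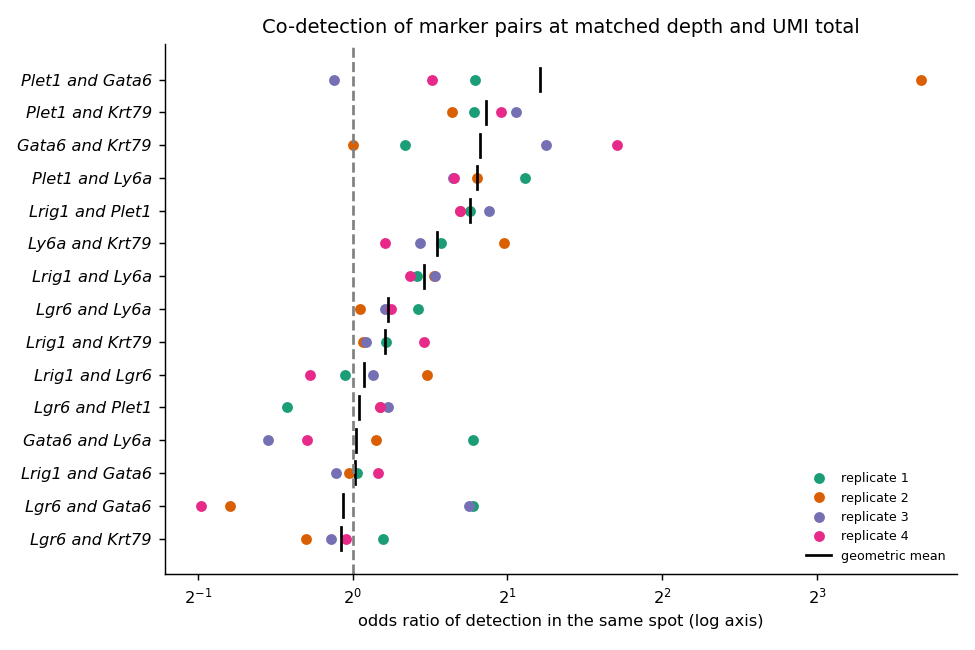
Odds ratio of detection in the same spot (horizontal axis, log scale) for each pair of markers (vertical axis), within strata of grid step band and UMI total. Each slice is 1 point, with the geometric mean as a black bar and 1 as a dashed line. The pairs of *Plet1* with *Krt79*, *Ly6a* and *Lrig1* lie above 1 in every slice, and pairs with *Gata6* or *Lgr6* scatter most.

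Genes with the most similar depth profile were sought among 8730 genes with a mean of at least 10 CPM, by Pearson's r of log2(CPM + 5) over the 36 points of 4 slices and 9 steps, which share libraries and tissue. For *Plet1* these were *Atp12a*, a proton pump subunit (r = 0.99), *Cst6*, a cysteine protease inhibitor that also set the upper HF spots (0.99), and *Atp6v1c2* (0.99). For *Krt79* they were *Defb6*, a defensin likewise used for the upper HF spots, *S100a4* and *Ccl27a*, a keratinocyte chemokine (each 0.99), and for *Gata6* they were *Krt79* itself, *Defb6* and *Elovl6*, a fatty acid elongase (each 0.95). *Lrig1* was followed most closely by *Actn1*, an actin crosslinker, *Gpc4*, a glypican, and *Dsg3*, a desmosomal cadherin of basal keratinocytes (each 0.98). *Ly6a* was followed by *Sparc*, *Serpinh1* and *Col6a1*, all genes of the collagen matrix and of its making (0.99, 0.98 and 0.98), of which *Sparc* is in the dermal list. For *Lgr6* the best were *Aff3* (0.82), *Prnp* and *Psmb10* (each 0.80). Between the markers, r was 0.95 for *Gata6* and *Krt79*, 0.93 for *Plet1* and *Krt79*, 0.85 for *Lrig1* and *Plet1* and -0.20 for *Lrig1* and *Lgr6*.

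The relatives of each marker were read from the same fit. Of the *Lgr6* pathway, 8 of 9 LGR and R-spondin genes were tested between depth bands, and from step 1 to steps 3 to 4, 3 were higher and 2 lower, where 39% of all genes were called, 19% higher and 20% lower. *Lgr5*, the receptor of bulge and lower follicle stem cells, rose (1.20, edgeR adjusted p = 6.89e-06) over the steps in which *Lgr6* fell, from 19.8 CPM at step 1 to 42.3 CPM at steps 3 to 4, and *Lgr4*, the broadly used receptor, rose by a log2 fold change of 0.48. *Znrf3*, a ubiquitin ligase that R-spondins inhibit, rose by 0.89, and of the R-spondins themselves *Rspo1* (-1.60) and *Rspo4* (-1.66) were lower. From step 0 to step 1 *Lgr5* (1.07) and *Lgr4* (0.39) were higher and none of the 8 was lower, where 14.6% of all genes were called.

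The list of 11 LRIG and ERBB genes holds *Lrig1* paralogs, ERBB receptors, ligands of these receptors and *Errfi1*. Of these genes, 1 was higher and 3 were lower in upper HF than in IFE spots, where 8.67% of all genes were higher and 9% lower. The one that rose with *Lrig1* was *Hbegf*, an EGFR ligand (1.84, edgeR adjusted p = 2.98e-07), which went from 9.64 CPM at step 0 to 21.8 at step 1 and 27.1 at step 2. *Btc* (-1.52) and *Ereg* (-2.38), further EGFR ligands, were lower, and so was the receptor gene *Erbb2* (-0.36). *Btc* fell from 54.9 CPM at step 0 to 16.6 at step 1 and 1.74 at steps 3 to 4. The *Lrig1* paralogs *Lrig2* (-0.30, edgeR adjusted p = 0.651) and *Lrig3* (0.03, edgeR adjusted p = 0.974) did not pass.

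Of 6 LY6 family genes, 5 were tested between depth bands. From step 0 to step 1 *Ly6c1*, which endothelial cells also express, rose (0.57), *Ly6d* (-0.88) and *Ly6e* (-0.33) fell, and *Ly6g6c* and *Ly6k* did not pass, where 14.6% of all genes were called. *Ly6c1* was also higher in dermal fibroblast than in IFE spots (1.07), as was *Ly6a*, while *Ly6d* (-1.34) and *Ly6g6c* (-0.83) were lower. *Ly6a* is close in sequence to *Ly6c1* and *Ly6c2*, and how reads shared between them were counted is not known here, so the *Ly6a* values carry that uncertainty.

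Of 10 bulge and lower follicle genes, 9 were tested between depth bands and 4 rose from IFE to upper HF spots (*Lhx2* 1.48, *Sox9* 1.24, *Tcf7l1* 1.20 and *Postn* 1.10), with *Krt15* lower (-0.38), where 8.67% of all genes were higher and 9% lower. Between step 1 and steps 3 to 4, where all 6 junctional zone and infundibulum markers were lower, 2 of these 9 were higher (*Lgr5* 1.20 and *Nes* 1.04) and 4 were lower, *Nfatc1* (-2.54), *Krt15* (-1.74), *Cd34* (-1.32) and *Lhx2* (-0.32), with a median of 0.16 over the list, where 19% of all genes were higher and 20% lower. *Lgr5*, *Lhx2* and *Sox9* are also in the list that set the outer root sheath spots.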

How the data were processed

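Visium libraries of 4 slices were analysed. The deposited values were UMI counts per gene and spot, which the authors made with Space Ranger 2.0.1 (per the file headers) on mm10 (per the labels) for spots under tissue. The authors left out 1 distorted section, and since its spots are not named in the sources used here, all spots were used. Spots with fewer than 250 genes were removed (9). No doublet caller was run, since spots are not cells, and 0 columns of other samples were used. The 6 genes, the marker lists, the companion lists and the tests were chosen with earlier results of these data known.

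A spot's score for a list was the mean of log counts per 10000 over its genes, standardised within the slice, and spots with no score of at least 1 were left unnamed. UMIs were summed per slice and depth band (0, 1, 2, 3 to 4, 5 to 6, 7 and more) or compartment. Sums were tested over all genes that passed filterByExpr with edgeR 4.0.16 (TMM, quasi-likelihood, Benjamini-Hochberg, adjusted p under 0.05) in R 4.3.3, without a slice block. DESeq2 1.42.0, library size alone, no filter, other score thresholds (0.75 and 1.5), thinning to 5500 UMIs per spot (5848 spots), a slice block and leaving out each slice were alternatives, and Seurat 5.3.0 clusters set another IFE. The methods were tested on simulated data. Sums of a slice come from the same sections, so the slice number pairs them: the mean correlation of their deviations from the group means lay between 0.0786 and 0.241 per slice for bands, with 0.0425 for the lowest pair of bands. Co-detection and mean depth were computed with Python 3.11.15, numpy 2.4.6 and scipy 1.17.1. Total counts per slice ranged from 19393026 to 26910422 as deposited, and intervals and SDs cover the spread between slices of the same 3 mice. The genes named were the 6 markers, the genes of the companion lists, and for each marker the 3 genes with the highest correlation of log2(CPM + 5) over slice and step among genes with a mean of at least 10 CPM. 1 gene of the marker lists is not reported here.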

Additional observations from a re-analysis of the deposited data

Results flagged for a closer look

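In 7 of 123 groups of 4 slice values (5.69%), 1 slice lay far from the other 3, so that its gap to the nearest took up more of the whole range than Dixon's 95% critical value allows. Chance gives this in about 1 group in 20. *Lrig1* did so at step 1 (0.916 of the range, with replicate 4 at 122.5 CPM against 102.0 to 103.7), at step 5 (0.898, replicate 4 at 53.9 CPM against 39.5 to 41.0) and at step 8 (0.831, replicate 4 at 23.2 CPM against 16.9 to 18.0). In upper HF spots *Lrig1* did so as well (0.866, replicate 4 at 203.4 CPM against 155.3 to 161.7). Replicate 4 was the high slice in these 4 groups. It had the lowest total of UMIs.

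*Krt79* stood apart at step 5 (0.831, replicate 1 at 56.2 CPM against 38.9 to 41.8) and in muscle spots (0.871, replicate 4 at 100.3 CPM against 47.0 to 53.8). For the co-detection of *Lgr6* and *Plet1*, replicate 1 had a log2 odds ratio of -0.42 against 0.18 to 0.23 (0.919).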

How the results depend on the processing

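Of the 48 log2 fold changes of the 6 genes, 35 were called, and 27 of these stayed called under every alternative run. Over 624 values under alternatives, 586 kept direction and call, 32 lost the call, 1 gained it (*Lgr6* at steps 3 to 4 against step 2, without replicate 1) and 5 changed sign. The 8 calls that were lost at least once were *Lrig1* at step 2 against step 1 (adjusted p up to 0.495) and at steps 3 to 4 against step 1 (0.0529), *Lgr6* at step 2 against step 1 (0.0605), in upper HF against outer root sheath (0.0894) and in dermal fibroblast against IFE spots (0.892), *Krt79* at step 1 against step 0 (0.109) and in upper HF against IFE spots (0.0898), and *Gata6* in upper HF against IFE spots (0.334). The sign changed for *Lgr6* at step 1 against step 0 (0.0395 with a score threshold of 1.5, 0.16 in thinned spots, and from -0.27 to 0.14 with 1 slice left out) and for *Krt79* in sebaceous gland against upper HF spots (from -0.19 to 0.00053 with 1 slice left out), and neither was called.

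Mean depths per UMI of *Krt5* and *Krt14* were 4.51 (*Lrig1*), 5.82 (*Lgr6*), 2.54 (*Plet1*), 2.51 (*Gata6*), 5.20 (*Ly6a*) and 2.04 (*Krt79*). Over steps 0 to 5 they were 2.27, 1.67, 1.49, 1.03, 1.74 and 0.98 in the same order, and *Lrig1* minus *Lgr6* became 0.59 and *Lgr6* minus *Ly6a* -0.0697. With the Seurat IFE they were 2.61 (*Lrig1*), 3.93 (*Lgr6*), 1.45 (*Plet1*) and 1.05 (*Krt79*). With straight-line distance they were 2.65 (*Lrig1*) and 3.22 (*Ly6a*), without muscle and adipose spots 4.04 (*Lgr6*) and 2.47 (*Ly6a*), in thinned spots 1.15 (*Gata6*), and per section 2.89 (*Lrig1*). Inferred sections, steps 0 to 5, bands without muscle and adipose spots and compartments without unnamed spots were alternatives chosen after seeing the data.

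In thinned spots the genes called numbered 1247, 865, 1946 and 3293 between depth bands and 1350, 1737, 551 and 1421 between compartments, in the order of the report, against 1882, 1608, 3276 and 5045, and 2189, 2893, 999 and 2334. With 1 slice left out, 1003 to 1110 were called between steps 2 and 1. With the slice as a replicate block they numbered 2305, 2166, 4044 and 5665, and 2551, 3426, 1270 and 2736, and the block changed 0 calls of the 6 genes. With the compartment added to the strata 6 pairs, and in thinned spots 5, had an odds ratio above 1 in 4 of 4 slices, and in thinned spots *Lgr6* with *Ly6a* had 0.998 and *Lgr6* with *Gata6* had no value. The cause of these changes was not tested. *Gata6* and *Lgr6* rest on 266 and 615 UMIs.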
